A study of Homo sapiens with 8 samples.

Results

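The 7 genes described here encode the chemokine receptors CCR4, CCR8 and CCR7, the interleukin-2 receptor chains IL2RA (CD25) and IL2RB (CD122), the adhesion molecule CADM1 and the transcription factor FOXP3, which together mark the surface and regulatory phenotype of adult T cell leukaemia (ATL). They were taken by symbol from the platform annotation, which named 17709 probe sets, and each of the 7 had 1 probe set. Expression was measured on 8 one-colour Affymetrix arrays, 1 for each of 8 groups. MT-1, a line labelled as ATL, was left untreated or received 500 nM OR21, a DNA demethylating agent, 2500 nM EPZ-6438, also called tazemetostat, which blocks EZH2, the enzyme that methylates histones to silence genes, or both at these doses. MT-2, labelled as infected with HTLV-1, the virus that causes ATL, was left untreated or received 100 nM OR21, 500 nM EPZ-6438 or both. All groups were collected after 96 h, compounds were added at seeding and again at 48 h, and both lines grew in RPMI-1640 with fetal bovine serum. The series asked how the 2 agents act together. Doses differed between the lines, each line is a single established culture, and no group was replicated.

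ATL cells are usually mature T cells that carry CD25 and CCR4, and many resemble regulatory T cells, which are defined by FOXP3. CCR4 draws cells towards CCL17 and CCL22 and is the target of the antibody mogamulizumab. CCR8 responds to CCL1 and is carried by regulatory and helper T cells in tissue, while CCR7 responds to CCL19 and CCL21 and guides T cells into lymph nodes. IL2RA binds interleukin-2 without signalling by itself. IL2RB and the common chain IL2RG carry the signal to JAK1, JAK3 and STAT5. The viral protein Tax is known to raise IL2RA through NF-kappaB. CADM1 (TSLC1) is an immunoglobulin-like adhesion molecule that ATL cells carry and normal T cells largely lack.

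Because OR21 acts on the methylation of CpG sites, the 250 bases before the start of CCR4 and IL2RA are shown, 5′ to 3′ on the strand of the gene, with every CpG in capitals. These were the genes above background whose promoters the reference table held. They come from RefSeq on GRCh38.p14, at chr3:32951394-32951643 (plus strand) for CCR4 and chr10:6062368-6062617 (minus strand) for IL2RA.
CCR4 promoter: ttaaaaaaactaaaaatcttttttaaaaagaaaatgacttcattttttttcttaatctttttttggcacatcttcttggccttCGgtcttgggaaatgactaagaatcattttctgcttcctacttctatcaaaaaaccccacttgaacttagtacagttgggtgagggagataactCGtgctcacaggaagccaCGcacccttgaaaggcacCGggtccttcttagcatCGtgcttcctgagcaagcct
IL2RA promoter: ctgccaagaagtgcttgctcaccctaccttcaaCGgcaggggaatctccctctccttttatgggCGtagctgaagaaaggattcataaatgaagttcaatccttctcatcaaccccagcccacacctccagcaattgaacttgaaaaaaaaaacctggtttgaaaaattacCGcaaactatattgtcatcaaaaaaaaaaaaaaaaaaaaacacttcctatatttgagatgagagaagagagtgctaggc
The CCR4 stretch held 5 CpGs and the IL2RA stretch 3, against a median of 11 over 35116 promoters of this length in the table (quartiles 3 and 23). A CpG count as low or lower occurred in 38.1% of these promoters for CCR4 and 29.3% for IL2RA, so both were ordinary. The NF-kappaB consensus, searched by name on both strands, occurred in 9.96% of all promoters. It matched IL2RA at gggaatctcc, positions -211 to -202 from the start, and on the other strand in an overlapping stretch shifted by 1 base, and it did not match CCR4. AP-1 (TGANTCA) and STAT5 (TTCNNNGAA) each occurred in 6.57% of promoters and in neither of these. A match to letters is a description of the window and shows no binding.

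All values are log2 levels made with RMA by the authors, so a difference of 1 is a 2-fold difference of signal. The highest value of the table, 18.91, is higher than scanner intensities usually give on a log2 scale, and the sources used here do not say whether values were rescaled after RMA. A level counted as above background where it exceeded the 95th percentile of the array's 612 negative-control probe sets, which lay between 7.193 and 7.803. Array medians lay between 6.443 and 6.677, and 8126 to 9718 probe sets per array were above background. Levels of different genes are not compared, since probes differ in brightness. The arrays measured RNA of whole cultures, in which fewer cells with a transcript and less transcript per cell cannot be told apart, and they did not measure surface protein.

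Of the 13 T cell identity genes with a probe set, 3 or 4 were above background on each array. CD3D, CD3E, CD3G, CD2, LCK, CD8A, CD8B and DPP4 were above it on none, so the label of a T cell line rested here on few markers. CD5 and CD247 were above background on all 8 arrays, CD4 only in MT-2 (12.23 to 12.82) and PTPRC only in MT-1 (10.62 to 11.34). Of the 15 markers of other cell types with a probe set, 1 to 4 were above background in MT-1 and 2 or 3 in MT-2. Their summed log2 levels were 80.9 in untreated MT-1, 88 with OR21, 83.1 with EPZ-6438 and 96.73 with both, and 91.1 to 94.38 in MT-2. Most of the 15 levels in each sum were under background, so the higher sums in MT-2 do not show more transcript of other cell types. The epithelial gene KRT8 moved with the treatment in MT-1 (7.77 untreated, 10.02 with OR21, 7.93 with EPZ-6438, 12.91 with both), as did the erythroid gene HBA1 (6.94, 8.07, 7.86 and 10 in the same order). Another epithelial gene, EPCAM, was at 4.71, 6.45, 4.81 and 8.66, above background only with both agents, where it was higher by at least 1.2. The defining B cell, myeloid and endothelial markers MS4A1, CD14, LYZ, CSF1R, VWF and PECAM1, and also HBB, COL1A1, NCAM1 and KLRD1, were above background on no array. The B cell gene CD79A was above it on 5 arrays, 2 of MT-1 and 3 of MT-2 (6.83 to 7.83 over all 8), and the cytotoxic cell gene NKG7 only in MT-2 (10.85 to 11.41). CD247, the zeta chain of the T cell receptor, was at 10.89, 9.8, 10.46 and 8.72 in MT-1, with an OR21 difference there of -1.41 (SE 0.263, limma adjusted p = 0.0168), so it was lowest on the same 2 arrays as CCR8 and CCR4. In MT-2 CD247 was at 9.74, 9.12, 9.92 and 8.48, so there too the OR21 arrays were the low ones. The part of these genes in the MT-1 results below was not tested.

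**Figure D1:**
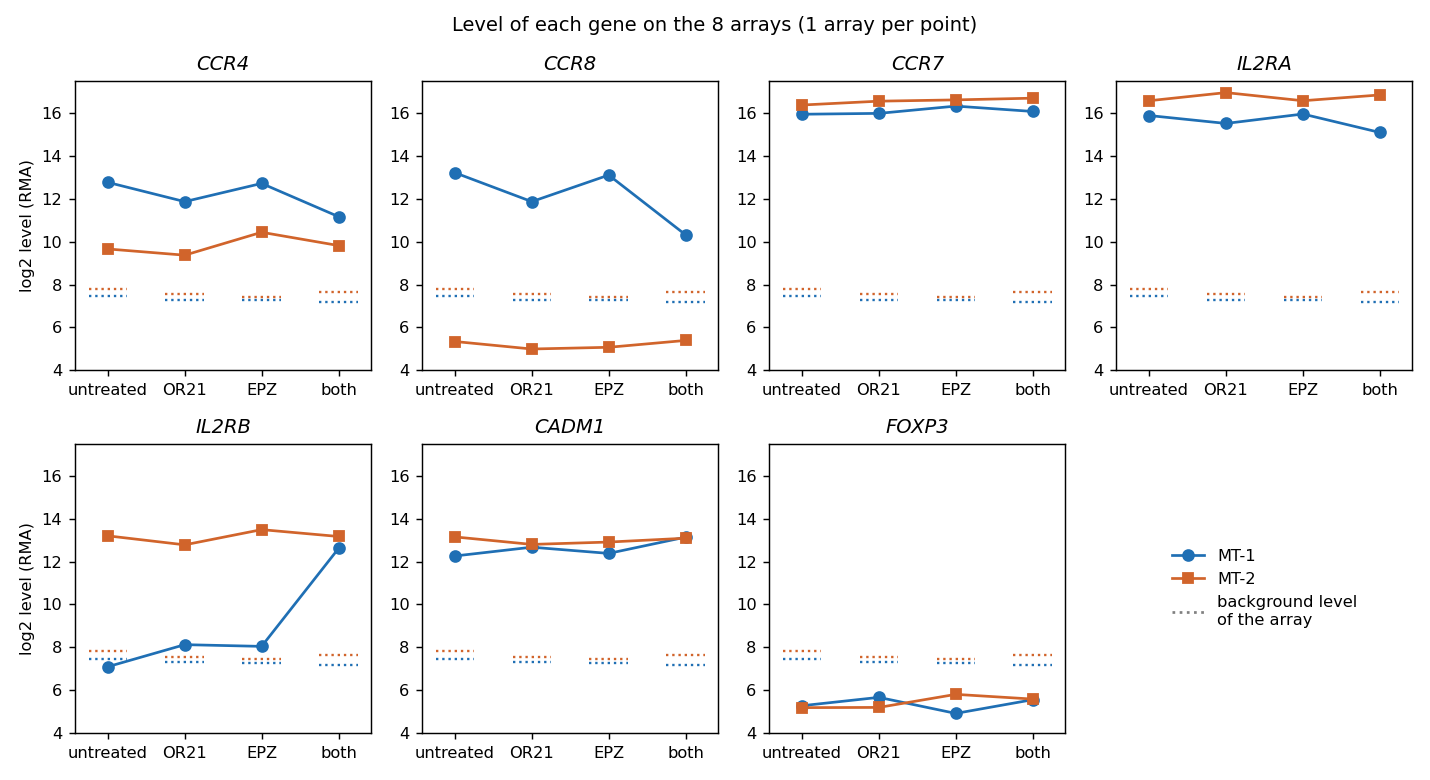
Log2 level of each of the 7 genes (vertical axis) on the 8 arrays, by treatment (horizontal axis, EPZ standing for EPZ-6438 and both for OR21 + EPZ-6438), with MT-1 in blue circles and MT-2 in orange squares, 1 array per point, and the dotted marks giving each array's background level. CCR8 lies above background in MT-1 and below it in MT-2, IL2RB leaves the background in MT-1 and reaches 12.61 with both agents, and FOXP3 lies below background throughout.

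CCR8 was the chemokine receptor that separated the lines most and that fell furthest under treatment. In MT-1 its level was 13.22 untreated, 11.87 with OR21, 13.11 with EPZ-6438 and 10.32 with both agents. In MT-2 it was 5.34, 4.99, 5.07 and 5.39 in the same order, under background on all 4 arrays. The 2 MT-1 arrays that saw OR21 were thus the low ones, the array with both agents was the lowest, and every MT-1 array stayed above every MT-2 array. CCR8 was lower than untreated MT-1 by a difference of -1.36 with OR21 (2.57-fold), -0.12 with EPZ-6438 and -2.9 with both (7.49-fold). For the combination CCR8 ranked 15 from the lowest of the 12942 probe sets kept (0.116%). For MT-2 no difference is given, since neither array of any pair was above background.

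CCR4 moved the same way in MT-1 over a smaller range. Its level in MT-1 was 12.77 untreated, 11.87 with OR21, 12.72 with EPZ-6438 and 11.17 with both agents. In MT-2 it was 9.66, 9.37, 10.44 and 9.82. The 2 OR21 arrays were again the low ones in MT-1, while in MT-2 the EPZ-6438 array was the highest, and the lines did not overlap. The MT-1 differences from untreated were -0.9 with OR21, -0.05 with EPZ-6438 and -1.6 with both (3.04-fold), the last of these ranking 284 from the lowest (2.19%). For scale, GUSB, listed as a reference gene, went from 9.51 untreated to 8.54 with OR21 in MT-1. The median difference of the 7 reference genes there was -0.19. In MT-2 the differences were -0.29, 0.78 and 0.16, and the value of 0.78 with EPZ-6438 ranked 303 from the highest (2.34%).

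CCR7 was bright and nearly flat. Its MT-1 levels were 15.95 untreated, 15.99 with OR21, 16.33 with EPZ-6438 and 16.08 with both agents, and its MT-2 levels were 16.38, 16.56, 16.62 and 16.7. All 4 MT-2 arrays were above all 4 MT-1 arrays, but the nearest arrays (16.38 and 16.33) differed by less than the SD over the 4 arrays of a line (0.17 and 0.14). The 6 differences from the untreated array of the same line lay between 0.04 and 0.38. Centring the arrays on their medians turned the sign of the MT-1 differences with OR21 and with both agents (-0.12 and -0.1), so they have no settled direction.

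The ligands of these receptors, which T cells or other cells release, were mostly silent. CCL17, CCL22, CCL19 and CCL21 were above background on no array and CCL18 on 1. CCL1, the ligand of CCR8, was above background only in MT-2, the line in which CCR8 was not, at 10.23 untreated, 11.45 with OR21, 10.55 with EPZ-6438 and 12.32 with both. CCL1 was higher by at least 2.77 in untreated MT-2 than in untreated MT-1. Of the 3 ligands kept, 2 were called higher in MT-2 over the 4 treatments (CCL1 and CCL18) in limma, against 22.7% of all probe sets, and 0 were called with OR21 in MT-1 (16.5% of all) or MT-2 (0.889%). Of the 13 other chemokine receptors listed, 5 were kept. CXCR4, the receptor of CXCL12, was at 12.48, 13.52, 13.61 and 14.54 in MT-1 and at 14.54 to 14.78 in MT-2, so within MT-1 it was highest on the array where CCR8 was lowest. Its OR21 difference in MT-1 was 0.99 (SE 0.172, limma adjusted p = 0.0135). CCR6, which responds to CCL20, was above background only in MT-2, at 8.33, 9.54, 9.38 and 11.36, with an OR21 difference of 1.59 (SE 0.236, adjusted p = 0.0419). Neither rise was particular to OR21. With EPZ-6438 alone CXCR4 was at 13.61 in MT-1, against 12.48 untreated, and CCR6 at 9.38 in MT-2, against 8.33. The EPZ-6438 test called 0 of the 5 receptors in MT-1 (0.0232% of all probe sets) and 0 in MT-2 (0% of all).

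IL2RB showed the widest range of the 7 genes. In MT-1 its level was 7.09 untreated, under the background of 7.458 on that array, then 8.12 with OR21, 8.04 with EPZ-6438 and 12.61 with both agents. In MT-2 it was 13.2, 12.78, 13.49 and 13.17. The MT-1 array with both agents was thus far above the other 3 MT-1 arrays and just below the lowest MT-2 array. Since untreated MT-1 gave only a background bound, the MT-1 differences were at least 0.66 with OR21, at least 0.58 with EPZ-6438 and at least 5.15 with both (at least 35.6-fold). On the deposited levels the latter ranked 73 from the highest of 12942 (0.564%). Against a stricter background, the 99th percentile of the negative controls, the difference with both agents was at least 3.93, and none is given for OR21 or EPZ-6438 alone. Set against each agent alone, where both arrays were above background, the combination was higher by 4.49 than OR21 (22.5-fold) and by 4.57 than EPZ-6438. In MT-2 the differences from untreated were -0.41, 0.29 and -0.02.

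IL2RA, the partner chain that gives the receptor its high affinity, did not follow IL2RB. Its MT-1 levels were 15.89 untreated, 15.52 with OR21, 15.96 with EPZ-6438 and 15.1 with both agents, and its MT-2 levels were 16.58, 16.96, 16.58 and 16.85. In MT-1 the OR21 arrays were the low ones and in MT-2 they were the high ones, and the lines did not overlap. The differences from untreated were -0.37, 0.07 and -0.79 in MT-1 and 0.39, 0.01 and 0.27 in MT-2. After centring, the MT-1 difference with both agents was -1.02.

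CADM1 was well above background in both lines and moved little. Its MT-1 levels were 12.26 untreated, 12.67 with OR21, 12.38 with EPZ-6438 and 13.14 with both agents, and its MT-2 levels were 13.15, 12.8, 12.91 and 13.09. The lines overlapped, since the MT-1 array with both agents lay among the MT-2 arrays. The differences from untreated were 0.41, 0.12 and 0.87 in MT-1, the last reaching 1.04 with cyclic loess scaling, and -0.36, -0.24 and -0.06 in MT-2.

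FOXP3 was at 5.27, 5.66, 4.91 and 5.55 in MT-1 and at 5.18, 5.19, 5.8 and 5.58 in MT-2. It was above background on none of the 8 arrays and was not kept for testing, so no difference is given. Its transcript was not detectable with this probe set, which does not show that it was absent.

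**Figure D2:**
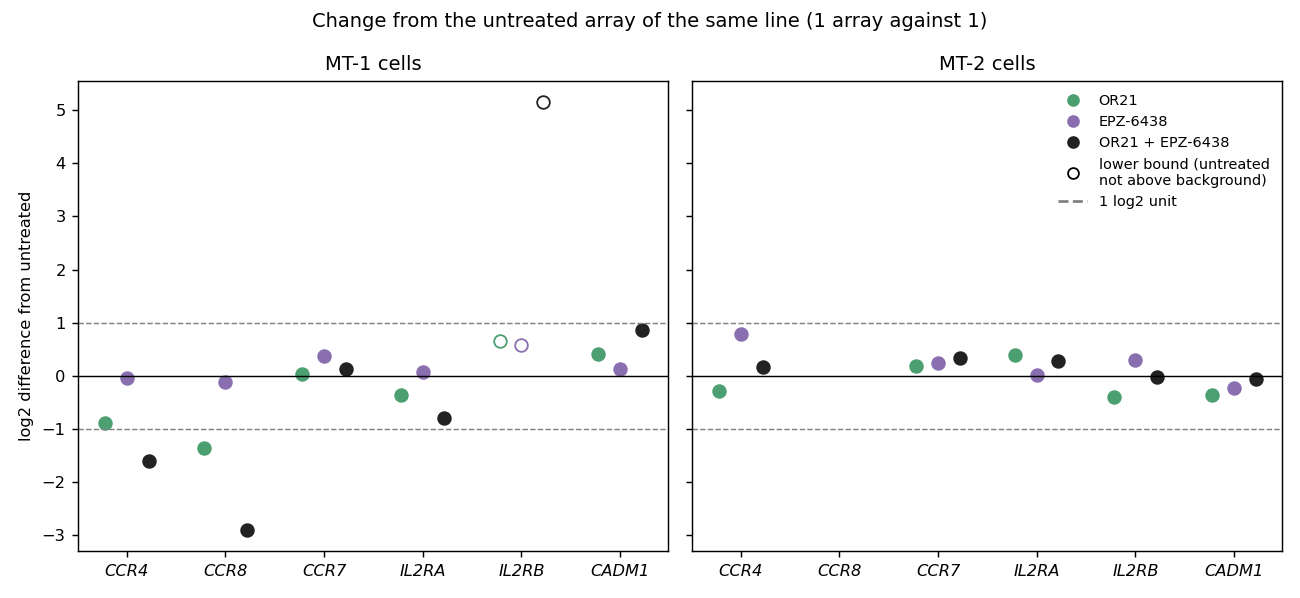
Log2 difference from the untreated array of the same line (vertical axis) for the 6 genes above background (horizontal axis) in MT-1 (left) and MT-2 (right), with OR21 in green, EPZ-6438 in purple and both in black. Open points are lower bounds, dashed lines mark 1 log2 unit, and CCR8 has no MT-2 points because it was not above background there. The black points of CCR8 (-2.9) and IL2RB (at least 5.15) in MT-1 stand farthest from 0, and no MT-2 point passes a dashed line.

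A difference of 1 log2 unit or more was used as the fold to count genes within a line, with no test, because each group held 1 array. With OR21 in MT-1, 1 of the 6 genes kept passed it (CCR8, lower), against 9.09% of all 12942 probe sets, 3.75% being lower. The counts of these genes used background bounds, while the shares over all probe sets used deposited levels without bounds. Without bounds IL2RB (1.03) also passed with OR21 in MT-1, and no other count in this paragraph changed. EPZ-6438 in MT-1 gave 0 of 6, against 1.32%. Both agents in MT-1 gave 3 of 6, with CCR4 and CCR8 lower and IL2RB higher, against 20.9% of all probe sets (11.2% higher and 9.64% lower). In MT-2, where CCR8 has no value, the counts were 0 of 5 with OR21 (4.05% of all), 0 with EPZ-6438 (1.25%) and 0 with both (7%). The median difference of the 6 genes with both agents in MT-1 was -0.33, against -0.05 over all probe sets, and in MT-2 it was 0.1 against -0.02, with CCR8 included at its levels under background. Centring each array on its median moved the median over all probe sets to -0.29 for both agents in MT-1, and relative to either median CCR8 and CCR4 stayed lower and IL2RB higher.

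Adding an agent to the other was also compared directly in MT-1. Beside IL2RB, the genes past the fold were CCR8, lower by a difference of -1.55 when EPZ-6438 was added to OR21 and of -2.79 when OR21 was added to EPZ-6438, and CCR4 in the latter comparison (-1.56). Of all probe sets, 7.15% passed the fold in the comparison with OR21 and 15.6% in the comparison with EPZ-6438. The excess, the change with both agents minus the sum of the changes with each agent, was 3.54 for IL2RB in MT-1 (rank 20 from the highest of 12942, 0.155%) and -1.43 for CCR8 (rank 37 from the lowest, 0.286%). The IL2RB value uses the deposited untreated level, which was under background. For CCR4 the MT-1 excess was -0.65, for IL2RA -0.48, for CADM1 0.35 and for CCR7 -0.29, around a median of 0.02 over all probe sets. In MT-2 the excess lay between -0.33 (CCR4) and 0.54 (CADM1) for the 5 genes above background, and IL2RB was at 0.1. In a test over both lines, added after the values were seen, the excess was 1.82 for IL2RB (SE 1.757) and -0.37 for CCR8 (SE 1.03), each with a limma adjusted p of 1, and 0 probe sets were called (223 at an unadjusted p under 0.05). The CCR8 value takes in MT-2 levels under background, so it cannot show whether the MT-1 excess was shared.

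**Figure D3:**
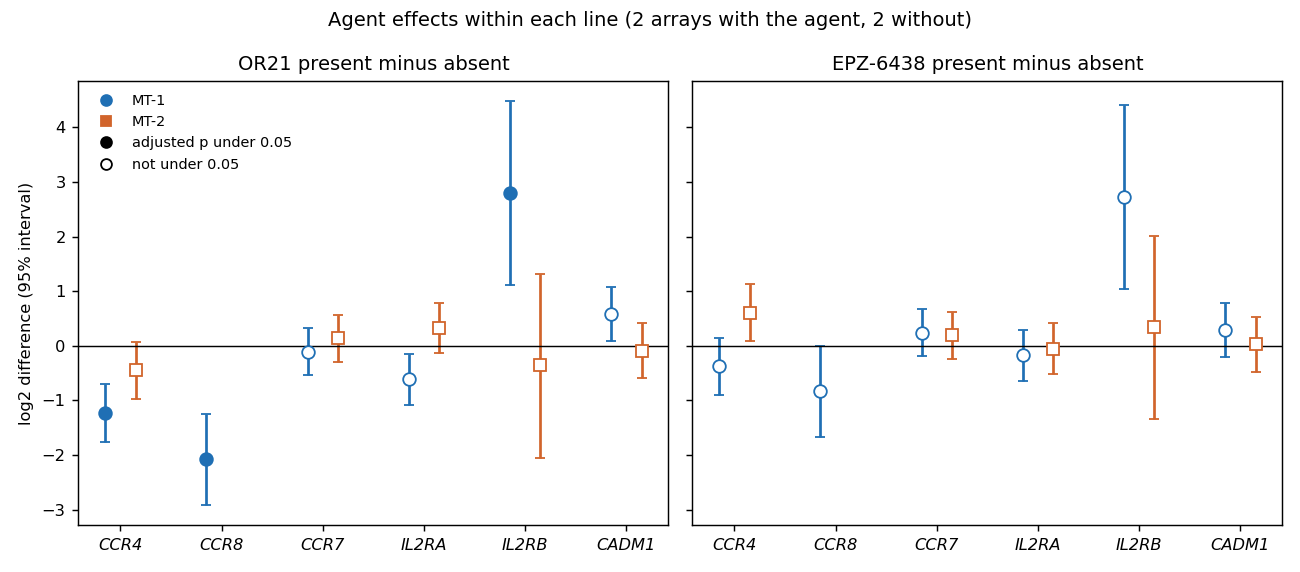
Log2 difference between the arrays with and without an agent (vertical axis, bars giving the 95% confidence interval from limma) for OR21 (left) and EPZ-6438 (right), in MT-1 (blue circles) and MT-2 (orange squares), for the 6 genes kept except CCR8 in MT-2. Filled points have an adjusted p under 0.05, which holds for CCR4, CCR8 and IL2RB with OR21 in MT-1 and for no other point.

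Each agent was present on 2 and absent on 2 arrays of a line, which allowed a test with limma in which the agents add up on the log2 scale. Its spread is the departure from that additivity, pooled over the lines, and p-values were adjusted over all 12942 probe sets. OR21 lowered CCR8 in MT-1 by a difference of -2.07 (SE 0.35, 95% interval -2.91 to -1.24, adjusted p = 0.0124) and CCR4 by -1.23 (SE 0.221, interval -1.76 to -0.7, adjusted p = 0.0149). Both genes were lower in 2 of 2 pairs of MT-1 arrays. OR21 raised IL2RB in MT-1 by 2.8 (SE 0.705, interval 1.12 to 4.48, adjusted p = 0.0411), also in 2 of 2 pairs, of which the pair without EPZ-6438 differed by 1.03 and the pair with it by 4.57. These were 3 of 6 genes called (1 higher, 2 lower), against 16.5% of all probe sets (8.07% higher and 8.38% lower). The share of higher among all called probe sets moved from 49.1% to 29.9% with arrays centred and to 61.7% with cyclic loess, while the 3 genes kept their direction and their calls under both. IL2RA (-0.61, interval -1.08 to -0.15, adjusted p = 0.0791), CADM1 (0.58, interval 0.08 to 1.08, adjusted p = 0.109) and CCR7 (-0.11, adjusted p = 0.729) did not pass. The IL2RB value uses the deposited untreated level, which was under background. All 3 calls needed the pair with EPZ-6438: without the MT-1 array with EPZ-6438 or the one with both agents, the values were -1.36 for CCR8 (adjusted p = 0.0716), -0.9 for CCR4 (0.123) and 1.03 for IL2RB (0.081). Without the untreated MT-1 array or the one with OR21, which leaves that pair alone, they were -2.79, -1.56 and 4.57. With any 1 MT-1 array left out, 1 array is set against 1 and MT-1 has no spread of its own. The spread of a gene then comes from MT-2, so these fits do not show that the calls hold. The IL2RB call was also lost without any 1 of the MT-2 arrays, which enter the pooled spread (adjusted p = 0.0954).

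The same test in MT-2 called 0 of the 5 genes above background there with OR21, against 0.889% of all probe sets. The intervals of the OR21 difference were -0.98 to 0.07 for CCR4, -0.14 to 0.79 for IL2RA and -2.05 to 1.32 for IL2RB, the last being wide. The MT-1 estimate for CCR4 (-1.23) lay outside the MT-2 interval, but the MT-1 interval (-1.76 to -0.7) overlapped it. MT-2 also received the lower dose, so these intervals do not show that the lines differed. EPZ-6438 gave 0 of 6 calls in MT-1, against 0.0232% of all probe sets (3 of 12942). IL2RB had the largest MT-1 value, 2.72 (SE 0.705, interval 1.04 to 4.41, adjusted p = 0.239), followed by CCR8 at -0.83 (adjusted p = 0.345). In MT-2, CCR4 was higher with EPZ-6438 by 0.61 (interval 0.08 to 1.14, adjusted p = 0.407), and 0 probe sets were called in all (1447 at an unadjusted p under 0.05).

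Whether the lines answered an agent differently was tested by the difference of their effects, MT-2 minus MT-1. For OR21 it was 2.05 for CCR8 (interval 0.87 to 3.23, adjusted p = 0.0732), a value in which the MT-2 levels were under background. For the other genes it was 0.78 for CCR4 (adjusted p = 0.212), 0.94 for IL2RA (0.114), -3.16 for IL2RB (interval -5.54 to -0.78, 0.13), -0.67 for CADM1 (0.251) and 0.24 for CCR7 (0.628). None of the 6 was called, against 4.1% of all probe sets. For EPZ-6438 the difference was 0.99 for CCR4 (adjusted p = 0.504) and -2.38 for IL2RB (0.54), with 0 of the 12942 probe sets called (1193 at an unadjusted p under 0.05). Doses differed between the lines, so line and dose cannot be told apart in these differences.

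Taking the lines as the 2 observations of a treatment, with line as a covariate, limma called 0 probe sets for OR21, EPZ-6438 or both agents against untreated (1079, 285 and 2489 at an unadjusted p under 0.05). With both agents the values over the lines were 2.75 for IL2RB (SE 1.243, interval -0.27 to 5.77, adjusted p = 0.286), -1.43 for CCR8 (0.327), -0.72 for CCR4 (0.359), 0.4 for CADM1 (0.437), 0.23 for CCR7 (0.528) and -0.26 for IL2RA (0.682). The CCR8 value takes in MT-2 levels under background, where a fall could not show, so it does not measure a change in both lines. Without the MT-2 array with both agents, where the contrast then rested on MT-1, IL2RB was at 5.17 (adjusted p = 0.0125) and CCR8 at -2.76 (0.034), and 740 probe sets were called.

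**Figure D4:**
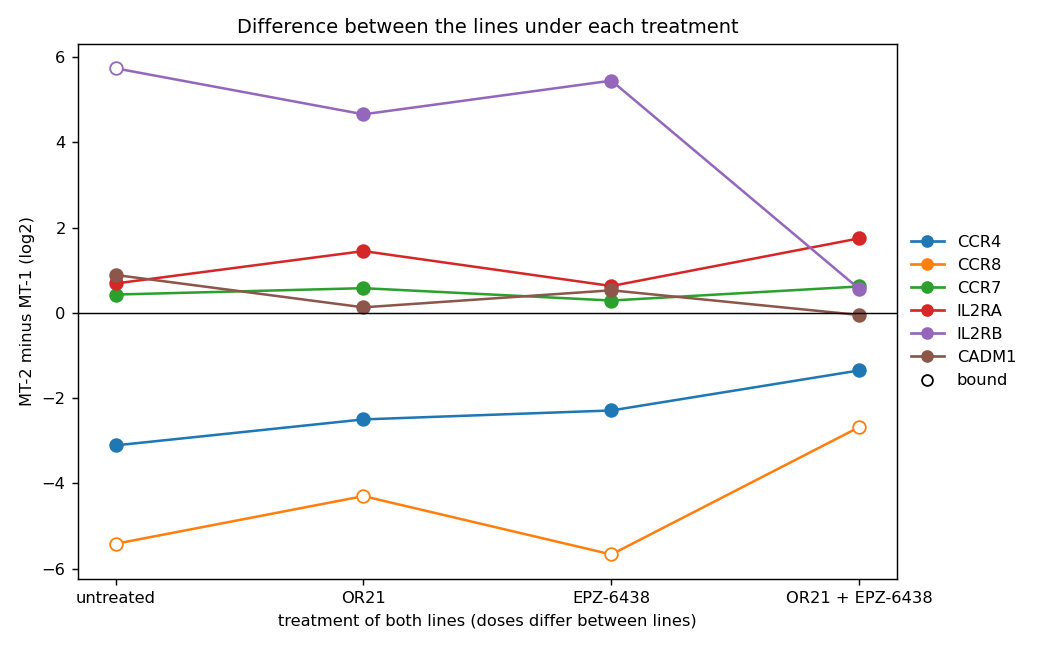
Log2 difference MT-2 minus MT-1 (vertical axis) under each treatment (horizontal axis) for the 6 genes above background, 1 array of each line per point, with open points for bounds. The IL2RB gap drops to 0.56 where both lines received both agents, the CCR4 gap shrinks to -1.35, and the IL2RA gap widens to 1.75.

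Between the untreated lines, IL2RB was higher in MT-2 by at least 5.74, while CCR4 (-3.11) and CCR8 (-5.42 or lower) were lower. These were 3 of 6 genes past the fold, with or without bounds. The share was near that of all probe sets on deposited levels, 42.9% (15.7% higher and 27.2% lower in MT-2). The other gaps were 0.89 for CADM1, 0.69 for IL2RA and 0.43 for CCR7, and with cyclic loess scaling the CADM1 gap was 1.36. The gaps changed with treatment. For IL2RB the gap was 4.66 with OR21, 5.45 with EPZ-6438 and 0.56 with both agents. For CCR4 it was -2.5, -2.29 and -1.35 in the same order. For IL2RA it was 1.45, 0.63 and 1.75. For CADM1 it was 0.13, 0.53 and -0.05, and for CCR8 it was -4.3, -5.67 and -2.68, each or lower. Against the 99th percentile of the negative controls the CCR8 gap was -3.91 or lower between the untreated lines and -0.73 or lower with both agents.

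Over the 4 matched treatments, 5 of the 6 genes differed between the lines in limma (3 higher, 2 lower in MT-2), against 63.4% of all probe sets (22.7% higher and 40.7% lower). Of all called probe sets 35.8% were higher in MT-2, or 50.2% with cyclic loess. CCR8 was lower in MT-2 by -6.93 (SE 0.515, adjusted p = 9.84e-05), or by -4.52 (0.000727) with levels under background set to it, and CCR4 by -2.31 (SE 0.285, adjusted p = 0.000725). IL2RB was higher by 4.19 (SE 0.879, adjusted p = 0.00664), IL2RA by 1.13 (SE 0.232, 0.00621) and CCR7 by 0.48 (SE 0.138, 0.0232). Of 7 reference genes, 2 were called higher and 3 lower in MT-2. Among them B2M differed by 0.9 and GUSB by -0.86, both more than CCR7. CADM1 differed by 0.37 (interval -0.1 to 0.85, adjusted p = 0.136), or by 0.8 (0.0156) with cyclic loess scaling. The CCR7 call was lost when any 1 of the 8 arrays was left out (adjusted p between 0.0522 and 0.0929). All 4 arrays of a line come from the same line, so this test speaks of these cultures and not of ATL and HTLV-1 infected cells in general.

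Of 9 other receptor and signalling genes of the interleukin-2 family kept, 6 were called higher in MT-2 over the 4 treatments and 1 lower, against 22.7% and 40.7% of all probe sets, with a list median of 1.61 against -0.3 over all probe sets. The gene lists, here and below, were chosen with earlier results of these data known, so such counts are a description. IL9R, the interleukin-9 receptor, was at 15.1 to 15.6 in MT-2 and under background in MT-1. IL4R, the interleukin-4 receptor chain, was at 7.8 in untreated MT-1 and 13.36 in untreated MT-2, and the transcription factor STAT5A at 8.98 and 12.02. IL2RG, the signalling partner of IL2RB, was the gene called lower in MT-2 (-0.6, SE 0.173, limma adjusted p = 0.0224), a call lost with cyclic loess (-0.24, 0.264), where 8 of the 9 genes were called higher and 0 lower. In MT-1 it was at 13.37 untreated, 14.07 with OR21, 13.81 with EPZ-6438 and 14.52 with both agents, and its OR21 difference there was 0.7 (SE 0.189, adjusted p = 0.0499), or 0.54 (0.0834) with arrays centred. The kinase JAK1 differed between the lines by 0.07 (adjusted p = 0.644). IL21R was at 8.14, 7.06, 7.57 and 6.42 in MT-1, lower by a difference of -0.85 or lower with OR21, where it was under background. Of the 6 cytokines of the family listed, the 5 with a probe set were above background on no array. IL9, the ligand of IL9R, had no probe set under its symbol and was not measured.

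Of 10 genes that interleukin-2 and STAT5 are known to induce, 7 were called higher in MT-2 over the 4 treatments and 1 lower, against 22.7% and 40.7% of all probe sets, with a list median of 2.11. The 7 include SOCS3, which was above background on no array. Between the untreated lines 7 of the 10 were higher by the fold on deposited levels, against 15.7% of all probe sets. With bounds the count was 4, for which no share over all probe sets was computed. SOCS2, a feedback inhibitor of cytokine signalling, stood at 8.46 in untreated MT-1 and 12.38 in untreated MT-2. The cell cycle gene CCND2 stood at 15.1 and 17.68. With both agents in MT-1, where IL2RB was highest, 2 of these 10 were higher by the fold, with or without bounds. The share over all probe sets, on deposited levels, was 11.2%. PIM1, a survival kinase, was at 6.74, 7.46, 8.26 and 9.65 over the MT-1 arrays, higher by at least 2.19 with both agents, and its relative PIM2 at 9.71, 10.46, 10.08 and 11.61, higher by 1.9. With OR21 in MT-1 2 of the 10 were called higher, against 8.07% of all probe sets, and 2 lower, against 8.38%. The higher ones were PIM1 (1.05, SE 0.222, limma adjusted p = 0.0243), with an untreated level under background, and PIM2 (1.14, SE 0.229, 0.0209). The lower ones were the feedback inhibitors SOCS2 (-0.92, SE 0.174, 0.0175) and CISH, which was under background on all 4 MT-1 arrays, so no difference is given for it.

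Around CADM1, 6 of 11 listed relatives and partners were kept, and over the 4 treatments 2 were called higher and 1 lower in MT-2, against 63.4% of all probe sets either way. EPB41L3 (DAL-1), a cytoskeletal protein that binds the tail of CADM1, was at 5.4 untreated, 8.83 with OR21, 4.92 with EPZ-6438 and 9.37 with both agents in MT-1. It was above background only on the 2 arrays with OR21, higher than untreated by at least 1.38 with OR21 and at least 1.91 with both agents. On the MT-2 arrays it was under background. In untreated MT-1 EPB41L3 was thus under background while CADM1 was above it.

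Around FOXP3, 14 of 16 genes of the regulatory T cell programme were kept, 8 called higher and 6 lower in MT-2 over the 4 treatments, against 22.7% and 40.7% of all probe sets (63.4% either way). These counts include LRRC32 (higher) and ICOS (lower), which were above background on no array. IL10, an inhibitory cytokine, was above background only in MT-2 (13.07, 14.15, 14.14 and 14.79), as were the receptors TNFRSF18 (10.96 to 12.25) and TNFRSF4 (10.06 to 10.9). TIGIT, an inhibitory receptor, was above background only in MT-1, at 9.23 untreated and 8.52 with EPZ-6438, and under it with OR21 (7.26) and both agents (6.28). It was lower than untreated MT-1 by a difference of -1.94 or lower with OR21 and -2.04 or lower with both. CTLA4, ICOS, IKZF2 and LRRC32 were, like FOXP3, above background on no array.

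**Figure D5:**
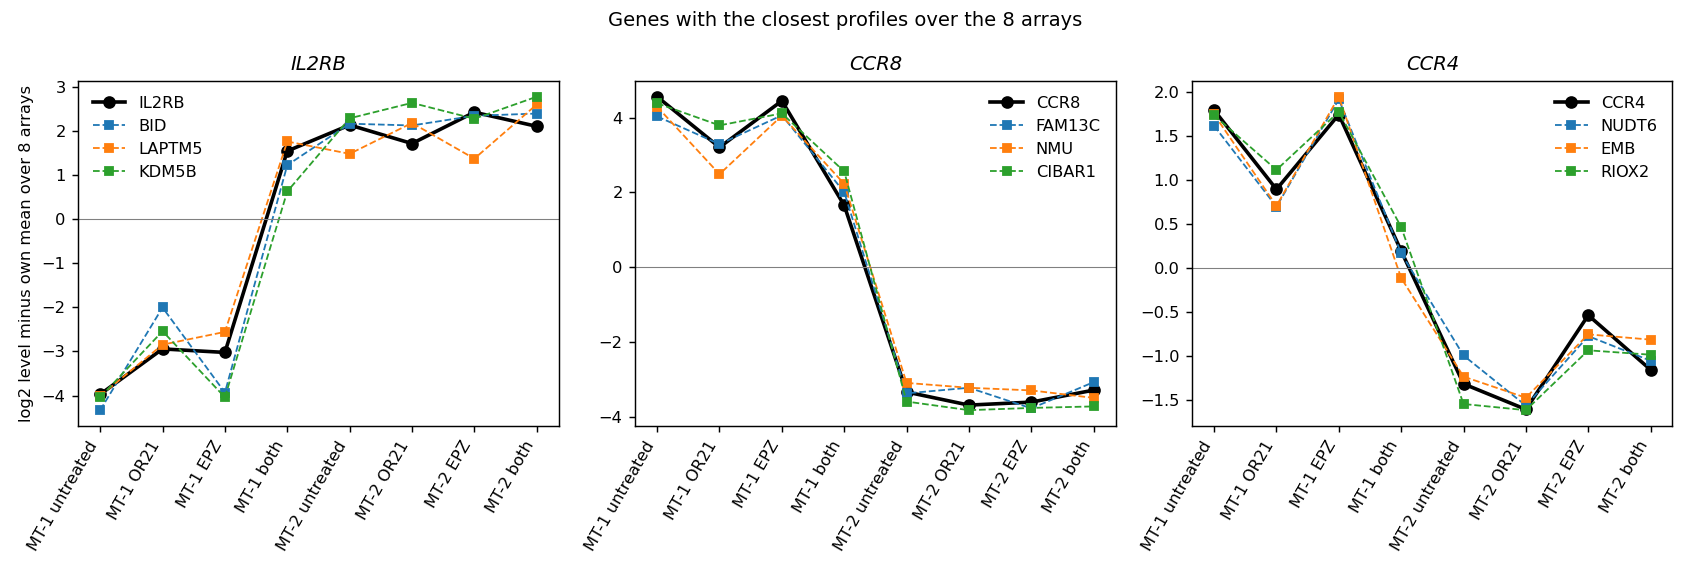
Profiles over the 8 arrays (horizontal axis, EPZ standing for EPZ-6438 and both for OR21 + EPZ-6438) of IL2RB, CCR8 and CCR4 in black and of the 3 genes closest to each, as log2 level minus the gene's own mean (vertical axis). In the left panel all 4 profiles are low on the other 3 MT-1 arrays and high on the MT-1 array with both agents and on the MT-2 arrays.

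Genes with a like profile were found by the root mean square distance over the 8 arrays, each profile centred on its own mean, among 9572 named probe sets above background on at least 1 array. The arrays share the 2 lines, which dominate these profiles, so the values are a description. Nearest to IL2RB were BID, a death agonist of the BCL2 family (distance 0.522, r = 0.982), LAPTM5, a lysosomal protein of blood cells (0.532, r = 0.979), and the histone demethylase KDM5B (0.652, r = 0.975). LAPTM5 was at 6.71, 7.87, 8.16 and 12.48 in MT-1 and at 12.09 to 13.32 in MT-2. BID was at 4.88, 7.21, 5.28 and 10.44 in MT-1 and at 11.34 to 11.61 in MT-2. Both thus shared the step on the MT-1 array with both agents.

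Nearest to CCR8 were FAM13C (0.327, r = 0.997), the neuropeptide NMU (0.429, r = 0.995) and CIBAR1 (0.448, r = 0.994). FAM13C was at 12.17, 11.43, 12.2 and 10.15 in MT-1 and at 4.38 to 5.08 in MT-2. Nearest to CCR4 were NUDT6 (0.185, r = 0.99), the adhesion molecule EMB (0.212, r = 0.986) and RIOX2 (0.215, r = 0.988). EMB was at 12.77, 11.73, 12.97 and 10.91 in MT-1. For IL2RA the nearest were NHLRC3 (0.127), RBM19 (0.141) and RPF2 (0.153), for CADM1 CCNG1 (0.115), RNF5 (0.121) and KIF20A (0.129), and for CCR7 GRPEL2 (0.094), NT5DC3 (0.1) and ECH1 (0.103). The shorter distances went with the narrow ranges of these 3 genes.

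As neighbours of each gene, the nearest protein-coding genes with a named probe set in the RefSeq order were examined. The aim was to see whether a change took in the locus. Genes without a named probe set were skipped, so a neighbour need not be the adjacent gene. Beside IL2RB, TMPRSS6 was above background on 1 array and C1QTNF6 on none (5.07 untreated and 4.33 with both agents in MT-1), so neither gave a difference beside the 12.61 of IL2RB. Beside CCR8, CX3CR1 was above background on 1 array, and SLC25A38 differed by -0.79 with both agents in MT-1, against -2.9 for CCR8. Beside CCR4, CRTAP differed in MT-1 by -0.76 with OR21, near the -0.9 of CCR4. With both agents it differed by -0.24, against -1.6 for CCR4. Beside IL2RA, IL15RA, the interleukin-15 receptor chain, was at 9.82, 9.3, 9.74 and 9.02 in MT-1, a difference of -0.8 with both agents that was close to the -0.79 of IL2RA. In MT-2 IL15RA differed by 0.43 with both agents and IL2RA by 0.27. RBM17, on the other side of IL2RA, differed by -0.62 in MT-1 and by -0.55 in MT-2.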

How the data were processed

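RNA of 8 groups was measured with 1 array each. The deposited table holds log2 values that the authors made with RMA, which corrects background, normalizes between arrays and sums up probes, per the submitters' processing notes. The sources used here do not name its version, and log base 2 is taken from RMA. Of 24351 entries, 2903 control probe sets were left out, which left 21448. The platform annotation gave exactly 1 symbol for 17709 and none for 3739. Probe sets whose highest value reached the table median of 6.573 were kept (12942, of which 11025 were named). Precision is limited by the number of arrays.

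A level above background on only 1 of 2 arrays gave a bound against the other array's background, written "at least" or "or lower", and on neither gave no difference. limma 3.58.1 (R 4.3.3, lmFit and eBayes) fitted line and treatment to all 8 arrays (3 residual degrees of freedom), and in a further fit each agent within each line, additive (2 residual degrees of freedom), with Benjamini-Hochberg adjustment over all kept probe sets and a threshold of 0.05. The fits were tested on simulated data. Scaling, filter, background, fold, trend and each array left out were tried as alternatives. Named genes were the 7 members, listed genes that passed the fold or test (and some described beside them after their values were seen), and the 3 nearest profiles per member. Members and lists were chosen with earlier results of these data known. Sequences come from RefSeq (GRCh38.p14), whose promoter table matched 3 of the 7 members, and gene order from the RefSeq gene table.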

Additional observations from a re-analysis of the deposited data

Results flagged for a closer look

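For 3 gene and agent pairs every matched pair of MT-1 arrays moved opposite to every matched pair of MT-2 arrays, while the limma test of the difference between the lines did not pass. With OR21, IL2RA differed by -0.37 and -0.85 in MT-1 (without and with EPZ-6438) and by 0.39 and 0.26 in MT-2, a difference of effects of 0.94 (adjusted p = 0.114). With OR21, IL2RB differed by 1.03 and 4.57 in MT-1 and by -0.41 and -0.32 in MT-2, a difference of effects of -3.16 (adjusted p = 0.13), where the untreated MT-1 level was under background. With EPZ-6438, CCR4 differed by -0.05 and -0.7 in MT-1 and by 0.78 and 0.45 in MT-2, a difference of effects of 0.99 (adjusted p = 0.504). The -0.05 is close to 0. Doses differed between the lines.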

How the results depend on the processing

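Over the alternatives tried for single genes, 491 of 538 values kept direction and side of the threshold, 17 newly passed it, 18 no longer did and 12 changed sign. Most of the 538 belong to results that were not called, where staying uncalled counts as kept. They also include the fits with 1 array left out, so the total does not measure how firm the calls are. Called probe sets with a trend in eBayes were 10 for both agents over the lines, 449 for OR21 in MT-2, 103 for EPZ-6438 in MT-1, 22 for EPZ-6438 in MT-2, and 1134 (OR21) and 5 (EPZ-6438) for the difference between the lines. With the trend IL2RA (adjusted p = 0.00269) and CADM1 (0.024) were called for OR21 in MT-1, as were the OR21 differences between the lines of CCR8 (0.0152), IL2RA (0.0039) and IL2RB (0.0302). With arrays centred, IL2RA was called for OR21 in MT-1 (-0.78, 0.034). With agents additive over both lines, 21 probe sets were called for OR21 and 15 for both agents. EPZ-6438 in MT-1 gave 1 call with cyclic loess, 8 without the filter, against 3 as reported, and the EPZ-6438 difference between the lines 1 without the filter. Genes past the fold for OR21 in MT-1 were 2 with arrays centred (adding CCR4), 2 with no background level (adding IL2RB) and 3 at a fold of 0.58. At that fold they were 1 for EPZ-6438 and 5 for both agents in MT-1, 1 for EPZ-6438 in MT-2 and 5 between the untreated lines.

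Leaving out each array in turn gave 0 to 740 calls for both agents over the lines, 0 to 7 for the excess, 558 to 1781 for OR21 in MT-1, 0 to 167 for OR21 in MT-2, 0 to 349 for EPZ-6438 in MT-1, 6711 to 8167 between the lines, and 51 to 969 (OR21) and 0 to 141 (EPZ-6438) for the difference of effects. Signs turned for IL2RA with both agents over the lines (-0.67 to 0.16), the excess of CCR8 (-1.71 to 0.96) and IL2RB (-0.6 to 4.24), CCR7 with OR21 in MT-1 (-0.25 to 0.04), CADM1 with OR21 in MT-2 (-0.36 to 0.18) and IL2RA with EPZ-6438 in MT-1 (-0.42 to 0.07). Without the untreated MT-1 array or the one with EPZ-6438, IL2RB was called for EPZ-6438 in MT-1 (4.49, adjusted p = 0.00132) and in the EPZ-6438 difference of effects (-4.15, 0.00592). Without the untreated MT-1 array or the one with OR21, the OR21 difference of effects was called for IL2RB (-4.93, 0.000569) and CCR8 (2.77, 0.00895). In the additive fit a line that lost an array has no spread of its own and is assumed to vary like the other line. Other causes were not tested. No replicate numbers were given in the labels, so none entered a fit as a block, and arrays were matched only by line and treatment. Setting levels to the background was run, after the values were seen, only for the difference between the lines over 4 treatments, since elsewhere it gives many probe sets the same value.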
